A study of Saccharomyces cerevisiae with 8 samples.

Results

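The core and linker histone genes of budding yeast (Saccharomyces cerevisiae) were taken by name from a table of mRNA sequencing values, and all 9 were found among its 6547 features. HTA1 and HTA2 encode histone H2A, HTB1 and HTB2 encode H2B, HHT1 and HHT2 encode H3, HHF1 and HHF2 encode H4, and HHO1 encodes the linker histone H1. The study sequenced mRNA from a mec1 strain (WFA73) and a wild-type strain (WT, WFA72) during and after replication stress, with 4 libraries each. Mec1 is the checkpoint kinase related to mammalian ATR. In each strain, cells were arrested in G1 by alpha factor, a mating pheromone (G1), then released into 200 mM hydroxyurea for 1 h (HU), and returned to drug-free medium for 30 min (R30) or 60 min (R60). Hydroxyurea inhibits ribonucleotide reductase and so slows DNA synthesis. The labels give the genotype only as mec1, and the kind of allele and any second mutation are not given in the sources used here. Each strain and time has 1 library and no replicate.

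Core histones form the octamer around which DNA is wrapped, and H1 binds the linker DNA between octamers. In yeast the core genes lie in divergent pairs that share an upstream region, their transcription peaks in S phase, and their mRNAs are polyadenylated, so that they are captured with other mRNAs. The transcription factor Spt10 activates all of the pairs through upstream activating elements. The HIR complex represses them outside S phase, except for HTA2-HTB2. When replication stalls, wild-type cells are known to lower histone mRNA.

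The shared upstream regions of the pairs are shown first, because each pair has a single region from which both of its genes are read. They were read from the RefSeq R64 genome, plus strand, around the matches to the Spt10-bound element. The letters searched on both strands were TTCC, any 6 bases, TTC, any base and C. Capitals mark the fixed letters of each match, which read GNGAA, any 6 bases and GGAA where the match is on the minus strand. The stretches are chrIV:915064-915201 (HTB1-HTA1), chrII:236058-236172 (HTA2-HTB2), chrII:255894-256008 (HHF1-HHT1) and chrXIV:576296-576410 (HHT2-HHF2).
HTB1-HTA1: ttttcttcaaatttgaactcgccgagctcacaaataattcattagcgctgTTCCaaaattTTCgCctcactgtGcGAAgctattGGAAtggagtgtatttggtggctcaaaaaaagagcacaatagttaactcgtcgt
HTA2-HTB2: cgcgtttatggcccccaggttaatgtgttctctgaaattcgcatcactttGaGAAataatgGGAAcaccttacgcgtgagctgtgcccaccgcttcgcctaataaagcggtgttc
HHF1-HHT1: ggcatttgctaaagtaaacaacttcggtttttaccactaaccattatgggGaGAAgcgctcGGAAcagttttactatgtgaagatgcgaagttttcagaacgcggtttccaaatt
HHT2-HHF2: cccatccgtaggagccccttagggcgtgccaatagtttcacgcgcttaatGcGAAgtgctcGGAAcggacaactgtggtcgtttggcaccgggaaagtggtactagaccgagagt
The region between HTB1 and HTA1 (817 bp on chromosome IV) held 2 matches and the other regions held 1 each, of which HTA2-HTB2 spans 699 bp and HHF1-HHT1 646 bp on chromosome II, and HHT2-HHF2 spans 676 bp on chromosome XIV. Among all 534 divergent intergenic regions of 500 to 1000 bp in the genome, the histone regions included, 42 (7.87%) held a match. Spt10 was already known to act on all of the histone pairs, so their matches are not a test of enrichment. The letters ACGCGT, bound by the G1/S factor MBF, occurred in 42 of the 534 regions (7.87%) and, of the histone regions, once between HTA2 and HTB2. The letters CNCGAAA, bound by the G1/S factor SBF, occurred in 158 of the 534 regions (29.6%), with 3 matches between HTB1 and HTA1, 2 between HHT2 and HHF2, and 0 between the other pairs. HHO1, which has no divergent histone partner, had 0 matches to the Spt10 element, 0 to ACGCGT and 1 to CNCGAAA in the 700 bp before its coding sequence on chromosome XVI. A match is a description of letters and not a measured site.

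The copies of each core histone are nearly identical, which limits how reads can be assigned between them. HTA1 and HTA2 differed at 25 of 399 coding bases (93.7% identity), HTB1 and HTB2 at 48 of 396 (87.9%), HHT1 and HHT2 at 28 of 411 (93.2%), and HHF1 and HHF2 at 8 of 312 (97.4%). The libraries were read as pairs of 75 bp, and a coding stretch of 75 bases was the same in both copies at 0 of 325 positions for H2A, 0 of 322 for H2B and 0 of 337 for H3. For H4 it was the same at 6 of 238 positions. The H4 stretch with the most differences, bases 148 to 222 of the coding sequence in R64, is shown with its 4 differences in capitals. Within the coding sequence, a read of HHF1 can be told from one of HHF2 only by such letters.
HHF1: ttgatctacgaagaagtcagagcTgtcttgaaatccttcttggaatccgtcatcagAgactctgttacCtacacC
HHF2: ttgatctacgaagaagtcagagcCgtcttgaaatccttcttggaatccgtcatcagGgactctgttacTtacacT
How the aligner treated reads that match both copies is not given in the sources used here, and values of HHF1 and HHF2 in particular may hold reads of each other.

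The values are reads scaled to a common library total (RPM), averaged over windows of the genome, as deposited by the authors, and not reads of a gene. Each histone feature has 4 or 5 such windows, which include stretches of 1000 bp on either side. The genes of a divergent pair therefore share windows with each other and, except for HHF1, with the gene beyond. The 9 genes therefore lie at 5 loci, and the genes of a pair are not independent of each other. HTA1 shares a window with ADK1 (adenylate kinase) and HHT1 with IPP1 (inorganic pyrophosphatase), which were estimated at 458 to 1038 RPM and 647 to 1219 RPM over the 8 libraries. For this reason each level is given as deposited and again after neighbours were separated by a non-negative fit to the layout of the windows. That fit predicted the deposited standard deviation (SD) over windows with a median log2 error of 0.43 for the histone features, and 2.04 at the most, so a separated level is an estimate.

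The RPM scale rests on 2441751 to 3935979 reads in mec1 libraries and 1596132 to 3101748 reads in WT libraries. Genes of a mating type cells, which respond to alpha factor, summed to 4115 RPM in mec1 G1 and 4822 RPM in WT G1, and those of alpha cells to 56.2 RPM in mec1 G1 and 55.0 RPM in WT G1. The MEC1 feature had 77.1, 124, 83.9 and 76.6 RPM in mec1 (G1, HU, R30, R60), and 36.2, 90.3, 35.7 and 38.7 RPM in WT, and with neighbours separated 86.3, 93.4, 79.8 and 84.2 RPM in mec1, and 13.2, 13.8, 16.7 and 14.4 RPM in WT. It was higher in the libraries labelled mec1 at every time on both scales. A value over windows does not show which transcript its reads come from, and whether an intact MEC1 transcript was present was not tested. As the kind of allele is not given in the sources used here, the strains are called here as the labels name them. HUG1, which the Mec1 pathway induces, had 37.7 RPM in mec1 HU and 445 RPM in WT HU. Values come from cultures, in which fewer cells making a transcript and less transcript per cell cannot be told apart.

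The H2A and H2B genes of the HTA1-HTB1 pair were lowest in HU in the mec1 strain after separation, while those of the HTA2-HTB2 pair were highest at R30 in both strains. HTA1 had 384, 279, 262 and 305 RPM in mec1 (G1, HU, R30, R60), and 270, 173, 298 and 281 RPM in WT. With neighbours separated, HTA1 had 312, 84.2, 124 and 182 RPM in mec1, and 166, 91.5, 218 and 204 RPM in WT. Both strains were lowest in HU on the separated scale, and mec1 G1 was above every other library on either scale. HTB1 had 204, 148, 159 and 193 RPM in mec1, and 122, 126, 205 and 159 RPM in WT. Separated, it had 270, 230, 244 and 290 RPM in mec1, and 166, 197, 304 and 224 RPM in WT. As deposited, WT R30 and mec1 G1 were the highest libraries for HTB1, and both WT G1 and WT HU lay below every mec1 library.

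HTA2 had 105, 149, 210 and 168 RPM in mec1 (G1, HU, R30, R60), and 60.8, 144, 428 and 115 RPM in WT. The WT R30 library stood above every other library for this gene, with a 95% counting interval of 399 to 459 RPM on a mean of 779 reads per window. HTA2 also had the widest span of the 9 genes, with the highest library 7.04 times the lowest, against 1.67 times for HTB1, which had the narrowest. HTB2 had 165, 208, 276 and 254 RPM in mec1, and 129, 150, 354 and 149 RPM in WT. As for HTA2, WT R30 was the highest library and WT G1 the lowest. With neighbours separated, HTA2 had 109, 162, 230 and 175 RPM in mec1, and 51.4, 170, 534 and 120 RPM in WT, and HTB2 119, 165, 231 and 213 RPM in mec1, and 93.6, 129, 298 and 139 RPM in WT. Both genes kept WT R30 as the highest library on that scale. Between R30 and G1 the log2 difference of HTA2 was 0.99 in mec1 and 2.80 in WT, and between R60 and R30 it was −0.32 in mec1 and −1.88 in WT. HTB2 differed between R60 and R30 by −0.12 in mec1 and by −1.24 in WT. These are differences of single libraries on the log2(RPM + 1) scale and have no test.

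**Figure D1:**
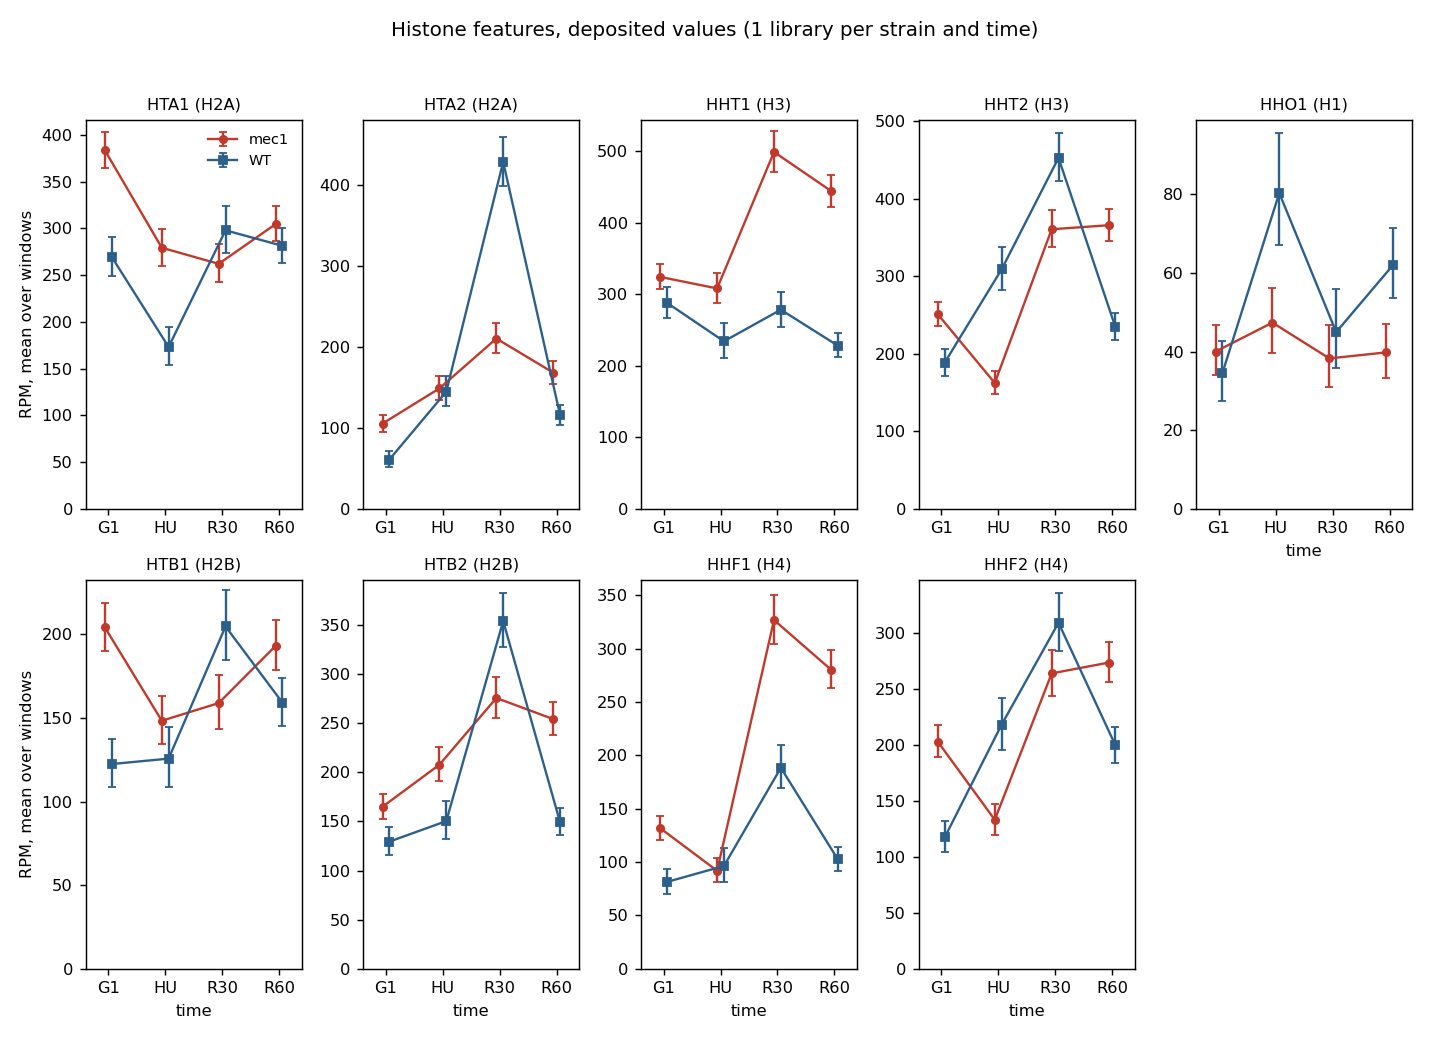
Deposited RPM (y axis, averaged over windows) of the 9 histone features at G1, HU, R30 and R60 (x axis), with mec1 as red circles and WT as blue squares, 1 library per point and bars for the 95% counting interval. Upper and lower panels in a column are the divergent pairs. HTA2 in WT stands at 428 RPM at R30 and at 115 RPM at R60, while HHF1 in mec1 is at 327 and 280 RPM.

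The genes of H3 and H4 differed in pattern between their loci, with HHT1 and HHF1 highest in mec1 after drug removal. HHT1 had 324, 308, 499 and 444 RPM in mec1 (G1, HU, R30, R60), and 288, 234, 278 and 228 RPM in WT. IPP1, the far stronger gene, lies in 1 of the windows of HHT1. With neighbours separated, HHT1 had 160, 85.7, 322 and 278 RPM in mec1, and 135, 110, 149 and 90.7 RPM in WT. If only 1 window of the feature is high and the rest are equal, the deposited SD puts the rest at 182, 119, 383 and 333 RPM in mec1, and at 141, 128, 204 and 124 RPM in WT. On all of these scales mec1 R30 and mec1 R60 were the highest libraries, above every WT library. HHF1, the H4 gene of the same pair, had 132, 91.8, 327 and 280 RPM in mec1, and 81.4, 96.3, 188 and 103 RPM in WT. Here too mec1 R30 and mec1 R60 lay above all 4 WT libraries, and the HU libraries of the strains were close, with 95% counting intervals of 80.9 to 104 RPM in mec1 and 81.7 to 113 RPM in WT. Separated, HHF1 had 132, 104, 363 and 310 RPM in mec1, and 64.9, 100, 226 and 119 RPM in WT.

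HHT2 had 251, 162, 361 and 366 RPM in mec1, and 189, 309, 453 and 234 RPM in WT. HHF2 had 203, 133, 264 and 274 RPM in mec1, and 117, 218, 309 and 200 RPM in WT. Separated, HHT2 had 270, 168, 433 and 433 RPM in mec1, and 215, 371, 554 and 244 RPM in WT, and HHF2 had 195, 123, 225 and 238 RPM in mec1, and 89.0, 190, 257 and 196 RPM in WT. For both genes and on both scales mec1 was lowest in HU while WT was lowest in G1 and highest at R30. The HU minus G1 difference was −0.63 in mec1 and 0.71 in WT for HHT2, and −0.60 in mec1 and 0.89 in WT for HHF2, in log2 units. With neighbours separated it was −0.69 in mec1 and 0.79 in WT for HHT2, and −0.66 in mec1 and 1.08 in WT for HHF2. The opposite directions of the strains rest on 1 library each and were not tested.

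**Figure D2:**
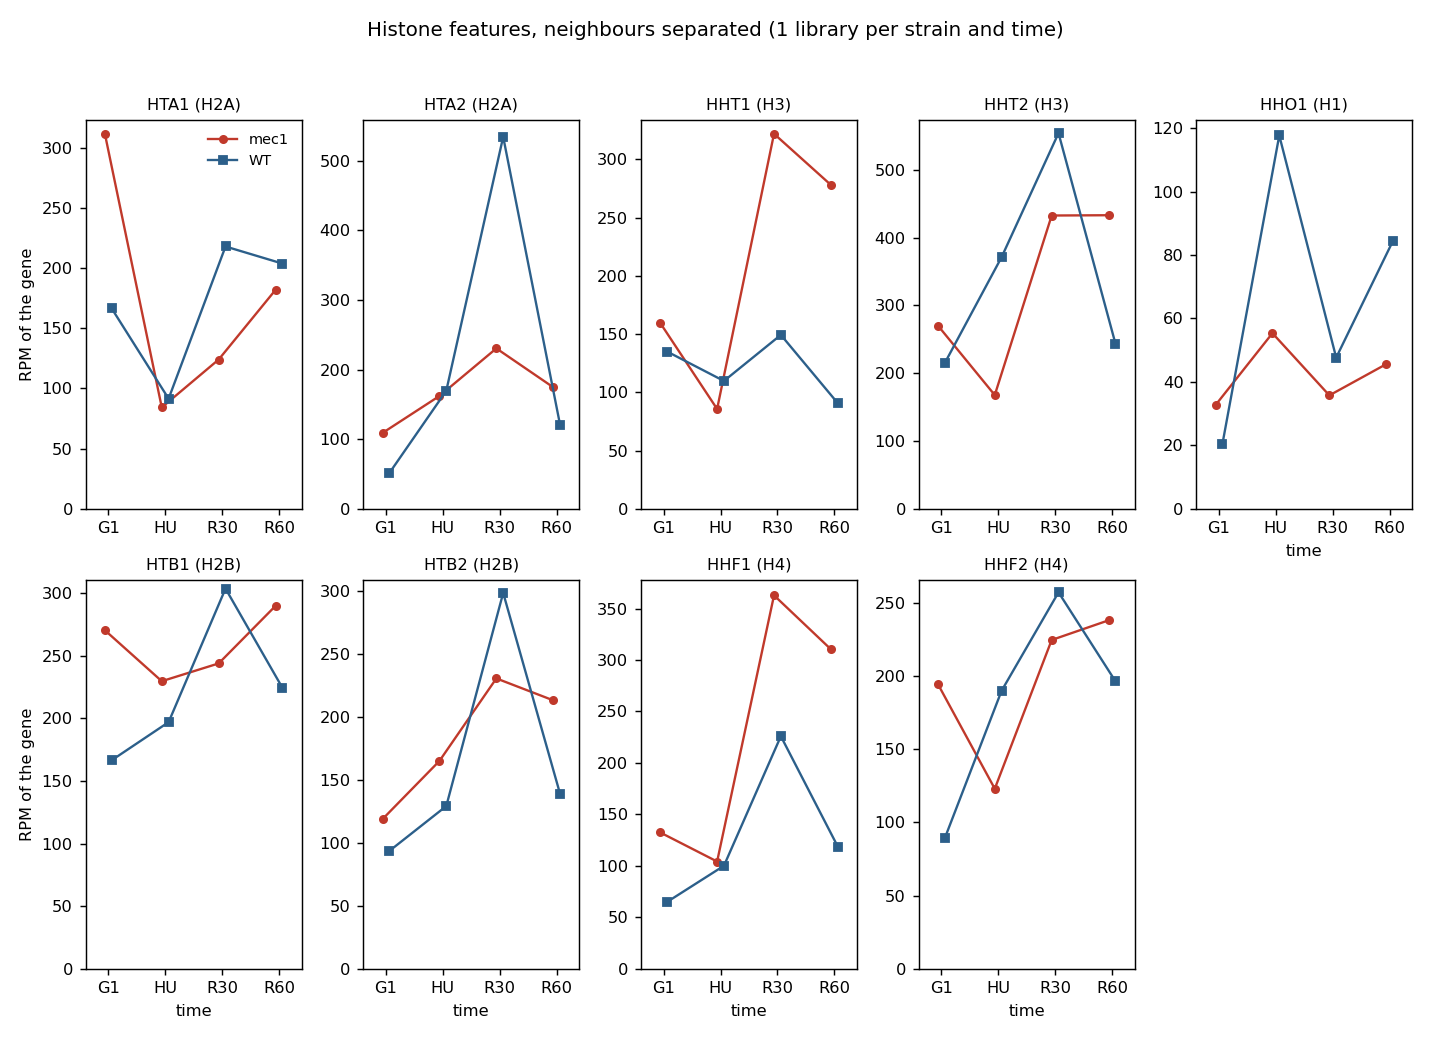
The same 9 genes with the reads of neighbouring genes separated, in RPM of the gene (y axis) at each time (x axis), with mec1 as red circles and WT as blue squares, 1 library per point. After separation HTA1 stands at 84.2 RPM in mec1 HU and 91.5 RPM in WT HU, the lowest value of each strain.

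HHO1 had the lowest deposited value of the 9 genes in each of the 8 libraries, and with neighbours separated in each but WT HU, where it was above HTA1, HHF1 and HHT1. Its values were 40.0, 47.4, 38.3 and 39.8 RPM in mec1, and 34.5, 80.3, 44.9 and 62.0 RPM in WT, and with neighbours separated 32.7, 55.4, 35.8 and 45.6 RPM in mec1, and 20.3, 118, 47.7 and 84.6 RPM in WT. WT HU was the highest library on both scales, and the 4 mec1 libraries had overlapping counting intervals between 30.9 and 56.2 RPM. The HU minus G1 difference was 0.24 in mec1 and 1.20 in WT as deposited, and 0.74 in mec1 and 2.48 in WT with neighbours separated. In WT, HTA2 had 1.24 as deposited and 1.70 separated, and the other core genes had smaller values than HHO1 on both scales. HHO1 shares windows with NAN1 and TBF1, estimated at 275 to 419 RPM and 61.0 to 94.5 RPM.

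Per kilobase of coding length, with neighbours separated, HHT2 had the highest mean level over the 8 libraries at 817 ± 323 RPM per kb (SD, n = 8 libraries). HTB1 followed at 608 ± 117, HHF2 at 606 ± 183, HHF1 at 569 ± 351 and HTA2 at 486 ± 370 RPM per kb. HTB2 had 438 ± 174, HTA1 433 ± 188, HHT1 405 ± 213 and HHO1 70.7 ± 40.7 RPM per kb. Each of the 8 core genes overlapped its neighbours in this order over the libraries, and the SD covers strains and times rather than replicates. HHO1 was lowest, and its highest library, at 151 RPM per kb, lay above a core gene only for HTA2, which had 129 RPM per kb in WT G1.

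With neighbours separated, the copy with the larger part of the H2A transcript differed between times, while that of H2B did not. Of the separated H2A level, HTA2 made up 25.9%, 65.8%, 65.0% and 49.0% in mec1 (G1, HU, R30, R60), and 23.6%, 65.0%, 71.0% and 37.1% in WT. In both strains HTA1 was the larger part in G1 and at R60, and HTA2 in HU and at R30. As deposited, with ADK1 reads in HTA1, the share of HTA2 was above 50% only in WT R30 (59.0%). For H2B, HTB1 was the larger separated part in all 8 libraries, but narrowly at R30, where HTB2 had 48.6% in mec1 and 49.6% in WT. As deposited, HTB2 made up 44.7%, 58.4%, 63.4% and 56.8% in mec1, and 51.4%, 54.5%, 63.4% and 48.4% in WT. On the deposited scale the larger H2B copy thus also differed between times. For H3, HHT2 made up 62.9%, 66.2%, 57.3% and 60.9% of the separated level in mec1, and 61.4%, 77.2%, 78.8% and 72.9% in WT. With neighbours separated HHT2 was the larger H3 part in all 8 libraries, and by more in WT than in mec1 at every time but G1. As deposited, with IPP1 reads in HHT1, HHT1 was the larger part in all 4 mec1 libraries and in WT G1, where HHT2 had 34.5% to 45.2% in mec1 and 39.6% in WT G1. For H4, HHF1 made up 40.5%, 45.9%, 61.8% and 56.6% in mec1, and 42.2%, 34.5%, 46.8% and 37.7% in WT. HHF1 was the larger H4 part only in mec1 R30 and mec1 R60. These shares are of 1 library each, and the sequence identity of the H4 copies bears on the last of them.

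The shared change over time was tested across both strains in an additive model of strain and time, fitted to all 6504 features with a value of at least 1 RPM in at least 2 libraries. All 9 histone features passed that filter. P-values from this fit compare a change with the unevenness of the strains in that model, and not with the spread between cultures. A feature was called at an adjusted p under 0.05 (limma, Benjamini-Hochberg, two-sided). Between HU and G1, 0 of 9 histone features were called, against 9.09% of all features (591 of 6504). The fitted changes were positive for 5 and negative for 4, from −0.55 (SE 0.21) for HTA1 to 0.86 (SE 0.39) for HTA2 in log2 units, with a median of 0.04 beside −0.02 over all features. HHO1, at 0.72 (SE 0.24), had the lowest adjusted p of the 9, 0.0972 in limma, and its HU value was above its G1 value in both strains. With neighbours separated, HHO1 had a fitted change of 1.61 (SE 0.43, adjusted p = 0.0957 in limma) and HTA1 of −1.37 (SE 0.37, adjusted p = 0.0985 in limma).

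Between R30 and HU, 0 of 9 were called, against 0.861% of all features, although 8 of 9 fitted changes were positive. Their median was 0.74 beside 0.04 over all features. HHF1 had a fitted change of 1.39 (SE 0.31, adjusted p = 0.101 in limma), HTA2 of 1.03 (SE 0.39), HHT2 of 0.85 (SE 0.35) and HTB2 of 0.82 (SE 0.25). HHO1 alone was negative, at −0.56 (SE 0.24). A change at least as large as that of HHF1 was found in 0.769% of all features and one as large as that of HTA2 in 1.98%. At an unadjusted p under 0.05 there were 4 of the 9 (HHF1, HTB2, HTA2 and HHT2), against 16.8% of all features in limma.

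Between R60 and R30, limma called 0 of 6504 features (0%) and thus 0 of 9, and 261 features (4.01%) had an unadjusted p under 0.05, HTA2 and HTB2 among them. The fitted changes were negative for 7 of 9, with HTA2 at −1.10 (SE 0.39), HTB2 at −0.68 (SE 0.25) and HHF1 at −0.55 (SE 0.31). Between R60 and HU, 0 of 9 were called, against 0.953% of all features, and between R60 and G1 0 of 9, against 1.58%. In R60 minus HU, 7 of 9 fitted changes were positive, with a median of 0.36 beside 0.05 over all features. In R60 minus G1, 8 of 9 were positive, with a median of 0.41 beside 0.02, and of 0.70 with neighbours separated.

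**Figure D3:**
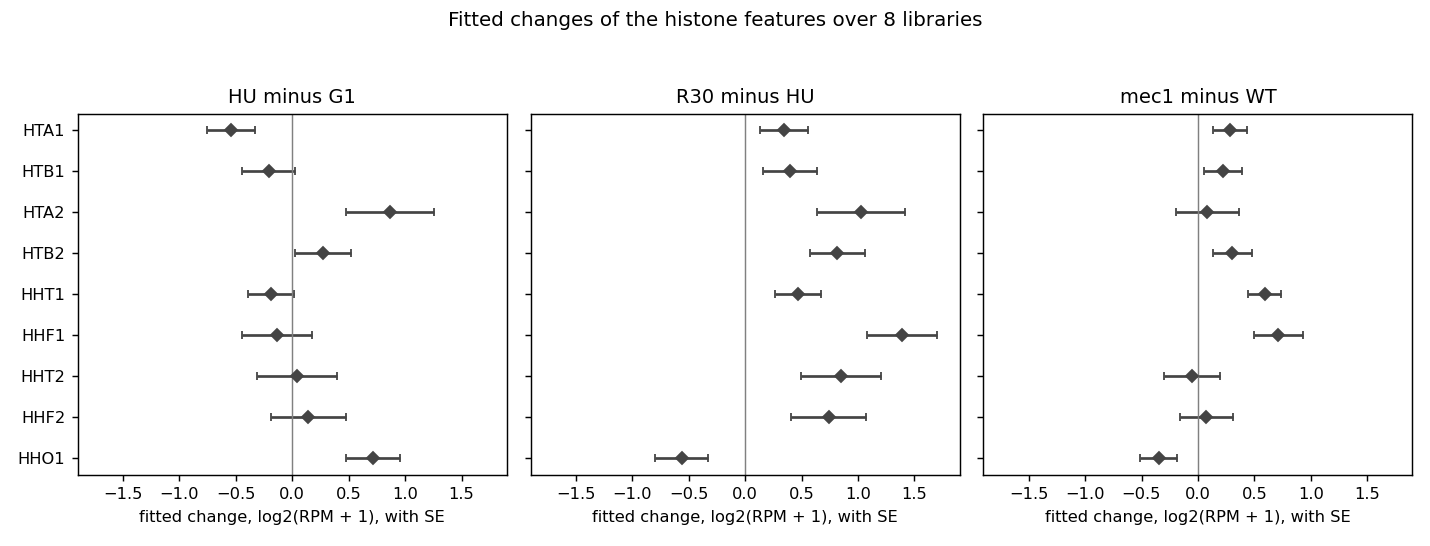
Fitted change of each histone feature on the log2(RPM + 1) scale (x axis) with its SE, from the limma fit to all 8 libraries, for HU minus G1, R30 minus HU and mec1 minus WT. In R30 minus HU the points of the 8 core genes lie above 0, from 0.34 for HTA1 to 1.39 for HHF1, and that of HHO1 lies at −0.56.

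Within each strain, the step from HU to R30 was larger for H3 and H4 genes in mec1 and for H2A and H2B genes in WT, a difference that rests on single libraries and was not tested. Between R30 and HU, HHF1 differed by 1.82, HHT2 by 1.15, HHF2 by 0.98 and HHT1 by 0.69 in mec1, against 0.96, 0.55, 0.50 and 0.25 in WT, in the same order of genes. The H2A and H2B genes showed the reverse, with HTA1 at −0.09, HTB1 at 0.10, HTA2 at 0.50 and HTB2 at 0.41 in mec1, against 0.78, 0.70, 1.56 and 1.23 in WT. The mec1 change thus exceeded the WT change for all 4 genes of H3 and H4, by 0.45 to 0.86, and was smaller for all 4 genes of H2A and H2B, by 0.60 to 1.06. The 95% counting interval of each of these differences excluded 0. That interval leaves out the spread between cultures, and its share over all features was not computed. Of all features, 3.87% had a mec1 change more than 2-fold above the WT change and 1.31% more than 2-fold below it, against 0 and 1 of the 9 histone features. With neighbours separated the signs of the strain differences were the same, at 0.43 to 1.46 for H3 and H4 and −1.15 to −0.54 for H2A and H2B. The split depended on the baseline. Between R30 and G1, the mec1 change minus the WT change was 0.67 for HHT1 and 0.10 for HHF1, but −0.74 for HHT2 and −1.01 for HHF2. It was −1.80 to −0.69 for the H2A and H2B genes. The 8 core genes lie at 4 loci whose genes share windows. Between R60 and R30, the 8 core genes differed by −0.32 to 0.28 in mec1, and by −1.88 to −0.08 in WT.

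**Figure D4:**
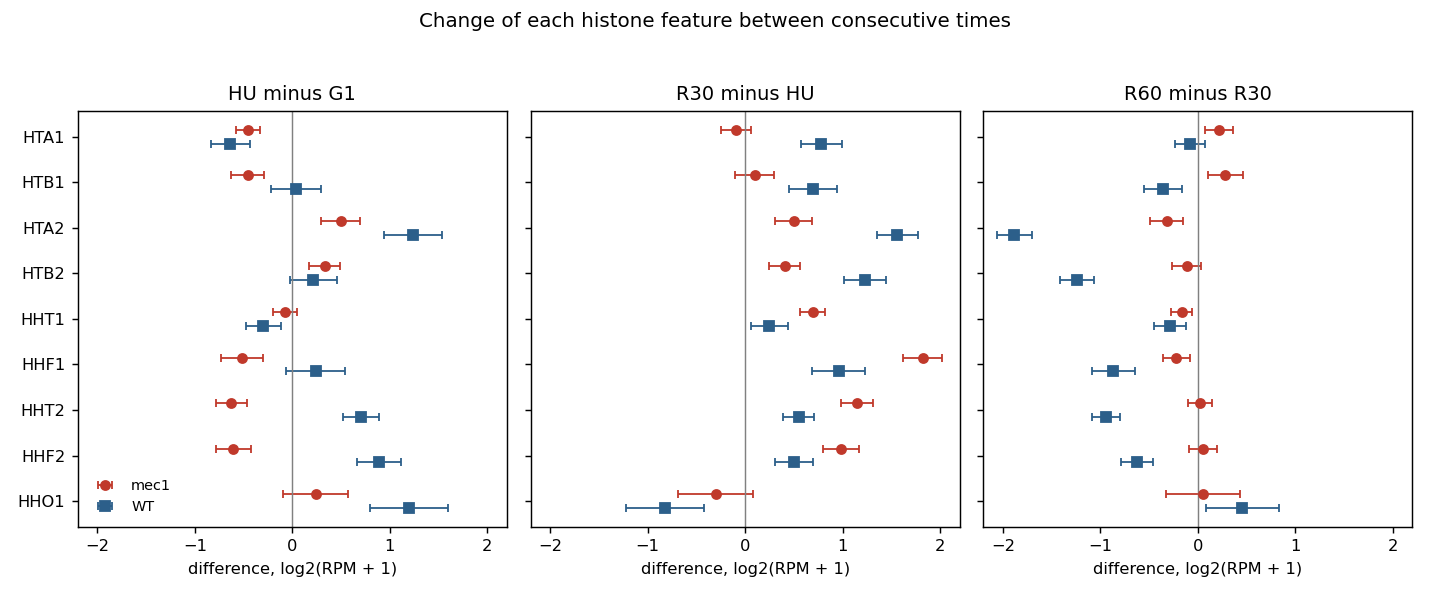
Difference of each histone feature between consecutive times on the log2(RPM + 1) scale (x axis), with mec1 as red circles above WT as blue squares, and bars for the 95% counting interval of 1 library against another. In the middle panel the H3 and H4 genes lie further to the right in mec1, up to 1.82 for HHF1, and the H2A and H2B genes further to the right in WT, up to 1.56 for HTA2.

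The strains were next compared at each time. In G1 all 9 histone features were higher in mec1 than in WT, by 0.17 (HHT1) to 0.78 (HTA2 and HHF2) with a median of 0.51, against a median of 0.06 over all features. The 95% counting interval lay above 0 for 8 of them and spanned 0 for HHO1 (−0.18 to 0.59). In HU, 5 were higher and 4 lower as deposited, with HHT2 at −0.92 and HHF2 at −0.71. With neighbours separated 3 were higher and 6 lower, since HTA1 (0.69 as deposited, −0.12 separated), HHT1 (0.39, −0.35), HTA2 (0.04, −0.06) and HHF1 (−0.07, 0.06) turned sign. At R30, 7 of 9 were lower in mec1, HTA2 by most at −1.02, and HHT1 and HHF1 were higher at 0.84 and 0.79. At R60, 8 of 9 were higher in mec1, HHF1 by 1.44, HHT1 by 0.96 and HTB2 by 0.77, and HHO1 was lower at −0.63. With neighbours separated 7 of 9 were higher at R60, since HTA1 turned sign (0.11 as deposited, −0.16 separated). Over all features the median strain difference was 0.13 at R30 and 0.10 at R60. With libraries scaled to a common median, HTA1 at R60 (0.11 as deposited, −0.0028 scaled) and HTA2 in HU (0.04 as deposited, −0.04 scaled) turned sign.

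Over the 4 times together, 0 of 9 histone features were called between mec1 and WT, against 0.277% of all features (18 of 6504). HHF1 had a fitted difference of 0.71 (SE 0.22, adjusted p = 0.116 in limma) and HHT1 one of 0.59 (SE 0.14, adjusted p = 0.0996 in limma), as deposited positive at 3 of the 4 times for HHF1 and at all 4 for HHT1. With neighbours separated these were 0.78 (SE 0.22) for HHF1, positive at all 4 times, and 0.65 (SE 0.32) for HHT1, positive at 3. Without the G1 libraries the HHT1 difference was 0.73 with an adjusted p of 0.0315 in limma, in a fit that called 669 features in place of 18. HHO1 had the lowest fitted difference, −0.35 (SE 0.17). The others lay between −0.05 (HHT2) and 0.30 (HTB2), and the median of the 9 was 0.22 beside 0.08 over all features, and 0.44 without the R30 libraries. Of the 9, 7 were positive, but HTA2 (−0.0113) and HHF2 (−0.020) were negative when libraries were scaled to a common median.

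Summed over the 9 features, histone values were 1808, 1527, 2395 and 2324 RPM in mec1 (G1, HU, R30, R60), and 1292, 1531, 2558 and 1532 RPM in WT. As deposited, the strains had close sums in HU and at R30, and mec1 was higher in G1 and at R60. With neighbours separated the sums were 1599, 1177, 2207 and 2165 RPM in mec1, and 1002, 1476, 2588 and 1421 RPM in WT. On both scales HU was the lowest time of mec1, and G1 the lowest of WT. There is no library of S-phase cells that were not given hydroxyurea. HU minus G1 therefore cannot show whether histone mRNA was lowered when replication stalled.

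Genes expressed at set times of the cell cycle also differed between the libraries, and their part in the histone values was not tested. The 14 G1/S genes, such as the cyclin gene CLN2 and the ribonucleotide reductase gene RNR1, summed to 1135, 1011, 1018 and 1196 RPM in mec1, and to 755, 1607, 652 and 1820 RPM in WT. With neighbours separated they summed to 1882, 1566, 1495 and 1854 RPM in mec1, and to 1060, 3360, 796 and 3497 RPM in WT. POL30, in this list, was estimated at 0 RPM in every library after separation. Its deposited value, up to 340 RPM in WT R60, therefore cannot be read as that of the gene. The 10 G2/M genes summed to 331, 587, 711 and 663 RPM in mec1, and to 313, 443, 801 and 442 RPM in WT, so that, like the histone sum, they were highest at R30 in both strains and lower at R60 than at R30 by more in WT. The 10 M/G1 genes summed to 647, 386, 471 and 816 RPM in mec1, and to 628, 418, 339 and 3049 RPM in WT. Of these, CTS1 was estimated at 0 RPM in mec1 HU, R30 and R60 and in WT R30 after separation. WT R60 stood apart in the M/G1 list, in which PIR1, a cell wall protein gene, had 270 RPM in mec1 R60 and 1036 RPM in WT R60. In the tests across both strains, 0 of 14 G1/S genes were called in any of the 6 contrasts, against 0% to 9.09% of all features. Of the G2/M genes the mitotic cyclin genes CLB1 (3.21, SE 0.42) and CLB2 (1.91, SE 0.30) rose between HU and G1, with adjusted p of 0.0109 and 0.0173 in limma. CLB1 was also higher at R60 than in G1, at 2.74 (adjusted p = 0.0300 in limma). Of the M/G1 genes CDC6, which loads the replicative helicase, rose in HU by 1.28 and at R60 by 1.64 relative to G1 (adjusted p = 0.0368 and 0.0421 in limma), and lost both calls with the R30 libraries left out (adjusted p = 0.0712 and 0.0873 in limma). All 10 pheromone response genes fell in HU and at R60 relative to G1, with medians of −3.11 and −2.55.

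**Figure D5:**
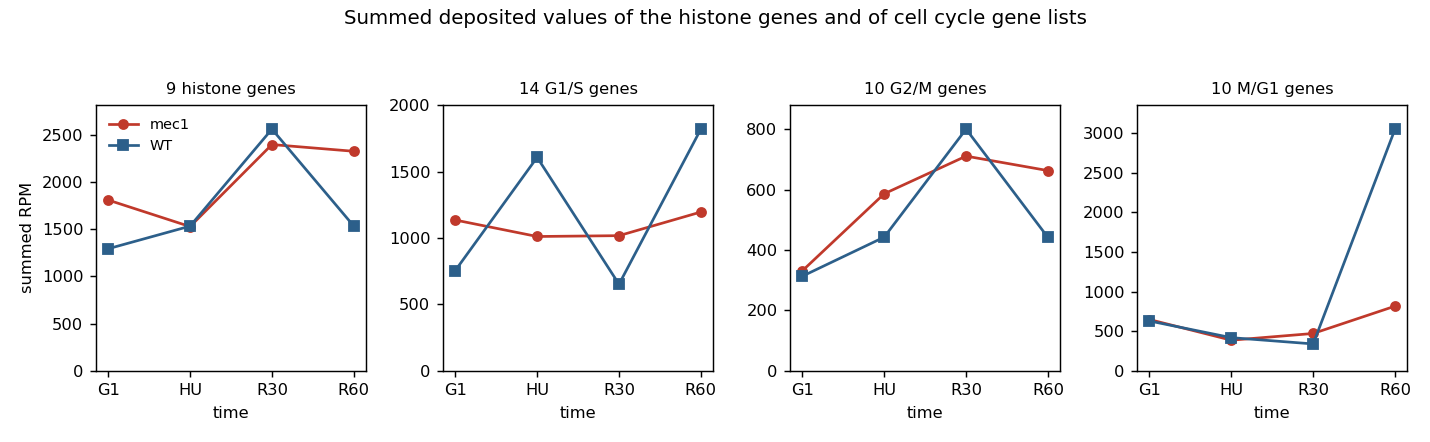
Summed deposited RPM (y axis) of the 9 histone genes and of G1/S, G2/M and M/G1 genes at each time (x axis), with mec1 as red circles and WT as blue squares, 1 library per point. The histone and G2/M sums are highest at R30 in both strains, and the M/G1 sum of WT stands at 3049 RPM at R60.

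Of 12 genes that regulate histone transcription, among them the HIR complex genes HIR1, HIR2, HIR3 and HPC2 and the activator genes SPT10 and SPT21, 0 were called in any of the 6 contrasts. Over all features, 0% (R60 minus R30) to 9.09% (HU minus G1) were called. SPT21, which acts with Spt10, had 34.9, 45.1, 44.3 and 45.7 RPM in mec1 and 26.1, 50.1, 29.9 and 71.6 RPM in WT, and a fitted change of 0.64 (SE 0.28) in HU minus G1. WT R60 was its highest library and WT G1 its lowest. ASF1, a chaperone of H3 and H4 that works with the HIR complex, had 34.9, 44.8, 54.1 and 75.3 RPM in mec1 and 26.5, 21.3, 17.7 and 58.7 RPM in WT. It was higher in mec1 at all 4 times, with a fitted difference of 0.83 (SE 0.21, adjusted p = 0.0996 in limma), and highest at R60 in both strains. The feature of MBP1, the DNA-binding part of MBF, had a fitted change of −1.54 (SE 0.25, adjusted p = 0.0547 in limma) in R30 minus HU, but its separated level was 55.0 to 62.6 RPM in mec1 and 23.6 to 53.7 RPM in WT against deposited values of 98.4 to 286 RPM in mec1 and 116 to 340 RPM in WT. HIR3 was estimated at 3.92 RPM in mec1 R60 and at 0 in the other libraries after separation, so that its deposited value cannot be read as that of the gene.

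Of 18 genes for histone chaperones, modifiers and nuclear import, 1 was called, the transcription elongation and H3-H4 chaperone gene SPT6, which fell in HU relative to G1 by 0.54 on the log2 scale (SE 0.12, adjusted p = 0.0455 in limma). Of all features, 9.09% (591 of 6504) were called in HU minus G1. SPT6 had 75.4, 48.5, 67.3 and 65.1 RPM in mec1, and 72.5, 53.0, 66.5 and 62.4 RPM in WT, and HU was the lowest time in both strains. Its call was lost without the R30 libraries (adjusted p = 0.0961 in limma) and without the R60 libraries (0.0711). POB3, which encodes a subunit of the chaperone FACT, had 87.3, 168, 189 and 217 RPM in mec1 and 74.1, 82.2, 83.8 and 108 RPM in WT. Its mec1 libraries after G1 lay above every WT library, and the fitted difference was 0.86 (SE 0.16, adjusted p = 0.0996 in limma). HAT1, which encodes an acetyltransferase of new H4, had 45.6, 79.6, 76.5 and 73.8 RPM in mec1 and 43.9, 35.2, 47.9 and 43.1 RPM in WT, with a fitted difference of 0.66 (SE 0.17). NHP6A, which encodes an HMG-box protein that works with FACT, had a fitted change of −0.77 (SE 0.17, adjusted p = 0.101 in limma) in R30 minus HU.

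Of the histone variants, HTZ1, which encodes H2A.Z, had 46.9, 95.8, 56.5 and 61.4 RPM in mec1 and 38.6, 75.2, 59.9 and 45.7 RPM in WT. It rose in HU relative to G1 by 0.98 (SE 0.16, adjusted p = 0.0183 in limma), and HU was its highest time in both strains. With neighbours separated the change was 1.01 with an adjusted p of 0.0578 in limma. CSE4, which encodes the centromeric H3 variant, had 17.5 to 23.7 RPM in mec1 and 15.8 to 19.5 RPM in WT, and was called in 0 of 6 contrasts.

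Across the 8 libraries the genes of a pair had Pearson correlations of log2 values of 0.95 for HHT2 and HHF2, 0.91 for HTA2 and HTB2, 0.82 for HHT1 and HHF1, and 0.75 for HTA1 and HTB1. They share windows, and with neighbours separated the last of these was 0.44. Over the 24 pairs of core genes at different loci the correlation ranged from −0.06 to 0.79, with a median of 0.54. HHO1 had correlations of −0.68 to 0.11 with the core genes as deposited and of −0.45 to 0.38 with neighbours separated. These values describe the same 8 libraries, 4 of each strain, and carry no test.

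The features most like the mean of the histone features over the 8 libraries, among 6173 with a mean of at least 10 RPM and more than 10 kb from a histone gene, were IRA1 (r = 0.94), QNS1 (0.93), YFR034W-A (0.92), RAT1 (0.92), NUF2 (0.92), SOL3 (0.91), NUP53 (0.91) and YHL026C (0.90). IRA1 encodes a Ras GTPase-activating protein, NUF2 a kinetochore protein and RAT1 a nuclear exonuclease. The highest library was 1.14 (NUP53) to 1.79 (NUF2) times the lowest, with IRA1 at 26.3, 26.2, 36.0 and 33.3 RPM in mec1 and at 22.7, 27.9, 34.5 and 29.3 RPM in WT. They were chosen as the highest of many correlations over 8 libraries.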

How the data were processed

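RNA was isolated with hot phenol and made into TruSeq Stranded mRNA libraries, per the labels. BWA and sacCer3 are named in the submitters' processing notes, with no version. The deposited table's title line calls its values log2 RPKM, but in each library a value multiplied by its window number came out as whole steps (to within 0.00599 of a step), so the values deposited by the authors were read as RPM averaged over windows. A layout of gene bodies and flanks of 1000 bp gave the listed number of windows for 6303 of 6547 features (96.3%). From it, neighbours were separated by non-negative least squares (reads of 75 bp, transcripts extended by 50 bp). The step sizes give 1596132 to 3935979 reads per library.

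Values were put on the log2(RPM + 1) scale. Features of at least 1 RPM in at least 2 libraries entered a limma fit (version 3.58.1, R 4.3.3) with strain and time as additive terms, a mean-dependent prior, 3 residual and 3.82 prior degrees of freedom, and 6 contrasts adjusted with Benjamini-Hochberg. The script was tested on simulated data. Single libraries were compared without a test, with 95% intervals on the mean reads per window that cover counting error only. Positions of the histone genes in the table lie −3 to 6 bp from those of RefSeq R64, so sequences and coordinates were taken from R64 by gene name. Named were all 9 members in every contrast, members of each list called in a contrast or among the 4 with the largest changes, features that share windows, and the 8 most alike features. MEC1 and HUG1 were looked up as a check of the strains. The members and lists were chosen with earlier results of these data known. Alternatives covered the pseudocount, filter, scaling, prior, libraries left out and neighbour separation.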

Additional observations from a re-analysis of the deposited data

Results flagged for a closer look

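Of 54 changes between times (9 histone genes, 6 pairs of times), 22 had opposite signs in the strains, as the values of 1 library against another on the log2(RPM + 1) scale. For 6 of them, in 4 genes, the 95% counting interval excluded 0 in both strains, and these are given here. The share of all features with such changes was not computed, so the counts do not set the histone genes apart from other features. The 54 changes are also not separate, as the 6 pairs of times reuse the same 4 libraries of a strain. HHT2 and HHF2, moreover, share windows. The difference between the strains was not tested in any of these changes. HTB1 differed between R60 and R30 by 0.28 in mec1 and −0.36 in WT, a strain difference of 0.64, and between R30 and G1 by −0.36 in mec1 and 0.74 in WT, a strain difference of −1.10. HHT1 differed between R60 and G1 by 0.45 in mec1 and −0.33 in WT, a strain difference of 0.79. HHT2 differed between HU and G1 by −0.63 in mec1 and 0.71 in WT, a strain difference of −1.33, and between R60 and HU by 1.17 in mec1 and −0.40 in WT, a strain difference of 1.56. HHF2 differed between HU and G1 by −0.60 in mec1 and 0.89 in WT, a strain difference of −1.49. With neighbours separated, all 6 kept opposite signs in the strains.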

How the results depend on the processing

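Libraries could not be paired by replicate, because each strain and time has 1 library, all numbered as replicate 1. With strain and time as additive terms, the fit compared times within strains and strains within times. The numbers of called features moved in 23 cases and stayed within 1.5 times in 50. Without the R30 libraries they were 218 in HU minus G1, 4 in R60 minus HU, 53 in R60 minus G1 and 7 in mec1 minus WT. Without the G1 libraries they were 28 in R30 minus HU, 32 in R60 minus HU and 669 in mec1 minus WT, and without the R60 libraries 7 in mec1 minus WT. With the other 4 libraries left out of each comparison they were 227, 17 and 194 in HU minus G1, R30 minus HU and R60 minus HU, and with no mean-dependent prior 3 and 32 in R30 minus HU and R60 minus HU. With neighbours separated, and in brackets with the second separation, which was chosen after seeing the data, they were 215 (224) in HU minus G1, 19 (22) in R30 minus HU, 17 (18) in R60 minus HU, 56 (50) in R60 minus G1 and 9 (8) in mec1 minus WT. The cause was not tested.

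Of the fitted changes of histone features under alternatives, 643 kept direction and side of the threshold, 13 reversed and 1 passed it (HHT1 in mec1 minus WT without the G1 libraries). With neighbours separated, HTB1 (0.0032) and HHF1 (0.14, and 0.11 in the second separation) reversed in HU minus G1, and HTA1 (−0.047, and −0.069) in mec1 minus WT. In mec1 minus WT, HTA2 was −0.0113 with median scaling, −0.15 without the G1 and −0.068 without the R60 libraries, HHF2 was −0.020, −0.16 and −0.050 in the same settings, and HHT2 was 0.24 without the HU and 0.042 without the R30 libraries. The median of the 9 was 0.70 in R60 minus G1 with either separation and 0.44 in mec1 minus WT without the R30 libraries. Of the calls of list genes, 285 were kept under an alternative and 39 were lost, those of CDC6, SPT6, FUS1, BAR1, CLB1, STE2, HTZ1 and FUS3. Of the differences between single libraries, 89 moved with neighbours separated and 109 did not. Locus means moved in 62 cases, all of them where 1 gene of a pair stood for its locus. Depth limits HHO1 most, with 81.8 reads per window in WT R30.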
